A study of Rattus norvegicus with 2 samples.

Results

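Genes of respiratory complexes II to V, of cytochrome c and of the carriers that feed the ATP synthase were followed in cultured heart muscle cells given lipopolysaccharide (LPS), an outer membrane component of Gram-negative bacteria. The group was drawn up as 48 genes by subunit membership, and 42 of them had a row of the array table with a single gene symbol, out of 22093 such genes in all. Where a gene had several rows, the row with the highest mean log2 of both arrays was taken. Of the other 6 genes, Cox7c, Atp5f1c and Atp5me shared their row with another gene, and Cox6b1, Cox7a1 and Atp5f1d had no such row and are not analysed here.

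Primary cardiomyocytes came from neonatal SD rats and had been cultured for several days before treatment. The control cells received vehicle and the treated cells LPS at 100 ng/mL, and total RNA was taken at 24 h in both groups. The labels name no genotype, age in days or sex, and do not say whether cells of several animals were pooled. Each group was measured on 1 whole-transcript array, so the spread between samples is unknown and no difference below has a test. Values are RMA intensities on a linear scale, where RMA is the standard background correction, equalisation and probe summary for such arrays. Differences are given as log2 of the LPS intensity minus log2 of the vehicle intensity, or as fold, and describe these 2 arrays. Levels of different genes come from different probes and are not compared with each other.

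The respiratory chain passes electrons from fuel oxidation to oxygen and pumps protons across the inner mitochondrial membrane. Complex II (succinate dehydrogenase) takes electrons from the citric acid cycle, complex III hands them to the mobile carrier cytochrome c, complex IV (cytochrome c oxidase) gives them to oxygen, and complex V (ATP synthase) uses the proton gradient to make ATP. Heart muscle is packed with mitochondria, and several complex IV subunits have a separate form that is made mainly in heart and skeletal muscle. Septic cardiomyopathy and cytopathic hypoxia, named in the title of the series, concern the heart's function and oxygen use in sepsis.

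The stretches of DNA before the genes are shown first, because 4 of the 7 genes that were lower by at least 1.2-fold have an entry among the RefSeq promoters of assembly GRCr8 and all of these 4 hold the same letters. Each entry has 250 bases before and 50 after the start of the gene. The letters are GCGCATGCG, read on either strand, a core of the element bound by NRF1, a transcription factor known for binding at genes of the respiratory chain. Capitals mark the matches. In Atp5mc2 and Atp5po a match on each strand overlaps the other. The entries lie at chr7:135678169-135678468 (- strand), chr4:80984718-80985017 (- strand), chr11:44657434-44657733 (- strand) and chr8:54130358-54130657 (- strand).
Atp5mc2: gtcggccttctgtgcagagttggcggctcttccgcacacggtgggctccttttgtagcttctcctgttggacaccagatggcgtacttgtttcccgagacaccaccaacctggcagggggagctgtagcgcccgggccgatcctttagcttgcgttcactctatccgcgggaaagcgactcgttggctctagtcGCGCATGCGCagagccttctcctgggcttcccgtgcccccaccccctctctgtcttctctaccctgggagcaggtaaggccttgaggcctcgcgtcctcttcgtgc
Cycs: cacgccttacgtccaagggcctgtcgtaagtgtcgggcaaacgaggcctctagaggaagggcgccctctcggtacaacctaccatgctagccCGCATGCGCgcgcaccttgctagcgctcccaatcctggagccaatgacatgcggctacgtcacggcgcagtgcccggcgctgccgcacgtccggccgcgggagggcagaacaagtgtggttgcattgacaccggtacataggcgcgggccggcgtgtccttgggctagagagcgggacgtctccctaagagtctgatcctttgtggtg
Atp5po: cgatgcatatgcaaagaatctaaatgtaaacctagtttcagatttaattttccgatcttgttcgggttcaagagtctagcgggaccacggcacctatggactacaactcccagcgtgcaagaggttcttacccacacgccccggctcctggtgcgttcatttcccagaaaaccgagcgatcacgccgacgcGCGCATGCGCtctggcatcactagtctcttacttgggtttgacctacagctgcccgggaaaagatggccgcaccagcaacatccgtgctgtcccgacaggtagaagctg
Atp5mg: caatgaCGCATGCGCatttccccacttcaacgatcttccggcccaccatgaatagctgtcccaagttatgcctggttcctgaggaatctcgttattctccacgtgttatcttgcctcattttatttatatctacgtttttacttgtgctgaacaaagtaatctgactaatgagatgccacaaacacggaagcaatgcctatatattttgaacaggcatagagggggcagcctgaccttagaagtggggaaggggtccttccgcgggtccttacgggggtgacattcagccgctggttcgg

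Among the 41 listed genes with a promoter entry, 6 held GCGCATGCG (14.6%), against 2.03% of 18999 protein-coding entries and 1.66% of all 27457 entries. The remaining 2 were Uqcrc1, at -0.17 log2, and Atp5me, which was not analysed. Across all genes above the floor defined below, 35.1% of the 342 with these letters were lower by any amount, against 32.3% of the 10644 without, and 13.2% against 13.3% were lower by at least 1.2-fold. Several letter strings were searched, and this one was picked after its matches had been seen. A match is a description of the letters and not evidence of binding.

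The letters CCGGAAG, a core of the ETS element bound by GABP, another factor known for respiratory genes, were in 15 of the 41 entries (36.6%), against 11.2% of protein-coding entries. They are shown in a hand-picked isoform pair, Cox8a, which was lower on the LPS array, and Cox8b, which was identical on both. Cox8a, at chr1:213833574-213833873 (- strand), held 2 matches, in capitals, and Cox8b, at chr1:205408224-205408523 (- strand), held none.
Cox8a: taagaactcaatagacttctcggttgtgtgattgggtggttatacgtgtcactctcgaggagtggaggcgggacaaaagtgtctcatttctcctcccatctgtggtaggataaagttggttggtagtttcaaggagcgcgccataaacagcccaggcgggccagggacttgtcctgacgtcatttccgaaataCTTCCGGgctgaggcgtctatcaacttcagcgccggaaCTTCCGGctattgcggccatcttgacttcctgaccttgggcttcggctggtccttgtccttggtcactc
Cox8b: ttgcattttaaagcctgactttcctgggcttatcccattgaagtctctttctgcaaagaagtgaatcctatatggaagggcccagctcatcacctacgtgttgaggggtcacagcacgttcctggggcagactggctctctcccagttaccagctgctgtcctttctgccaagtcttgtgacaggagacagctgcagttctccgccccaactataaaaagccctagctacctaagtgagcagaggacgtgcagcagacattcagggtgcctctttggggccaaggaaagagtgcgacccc

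Across all genes above the floor, 31.0% of the 1817 with CCGGAAG were lower by any amount, against 32.7% of the 9169 without, and 9.80% against 13.98% were lower by at least 1.2-fold. Among the members too, matches were not limited to genes with lower values. Uqcrc2, Slc25a3, Slc25a4 and Atp5pf held CCGGAAG and had identical values on both arrays. The ADP/ATP carrier pair was laid out the other way from Cox8a and Cox8b. There the identical Slc25a4 held a match, and Slc25a5, at -0.12 log2, held none. The letters ACGTG, 1 of 2 forms of the core bound by hypoxia-inducible factors, were in 26.8% of the members' entries and 20.4% of protein-coding entries. For the other form, GCGTG, the shares were 53.7% and 35.8%.

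Most of the 42 genes were slightly lower on the LPS array. In all, 27 were lower by any amount, 11 were exactly identical and 4 were higher, with a median log2 difference of -0.089. A gene counted as above the floor if it reached 49.3, the median over all rows, on at least 1 array. Among all 14420 genes above the floor, 31.7% were lower by any amount, 45.9% identical and 22.4% higher, with a median of 0. How so many values came to be exactly identical on both arrays is not stated in the labels, so an identical value here cannot be told apart from an effect of the deposited processing. All 42 genes were above that floor. Intensities of the 42 genes ran from 64.0 to 115127.

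The differences were small. Of the 42 genes, 7 (16.7%) were lower by at least 1.2-fold, a share close to the 12.9% of all genes above the floor. One gene, Cox4i2, was higher by that size, where the share of all genes was 10.5%. None of the 42 differed by 2-fold, a size reached by 2.63% of all genes in the lower and 3.69% in the higher direction. The gene just inside the 1.2-fold size was Atp5mg, at -0.27 log2, and the gene just outside it was Cox7a2, at -0.24.

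How often a gene was lower also moved with its level. The 10% of genes with the highest level held 20 of the 42, of which 11 were lower (55.0%), beside 48.6% of all 1442 genes at that level. There 4 of the 20 were lower by at least 1.2-fold, beside 20.5% of these genes. Of the 22 below that level, 16 were lower (72.7%), beside 29.8% of the 12978 other genes there, and 3 (13.6%) were lower by at least 1.2-fold, beside 12.1%. The background of 29.8% is not matched for level within this range. In the 10% of genes with the lowest level, which held 0 of the 22, 11.2% were lower. In the 10% just below the highest, which held 6 of the 22, 42.9% were lower.

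**Figure D1:**
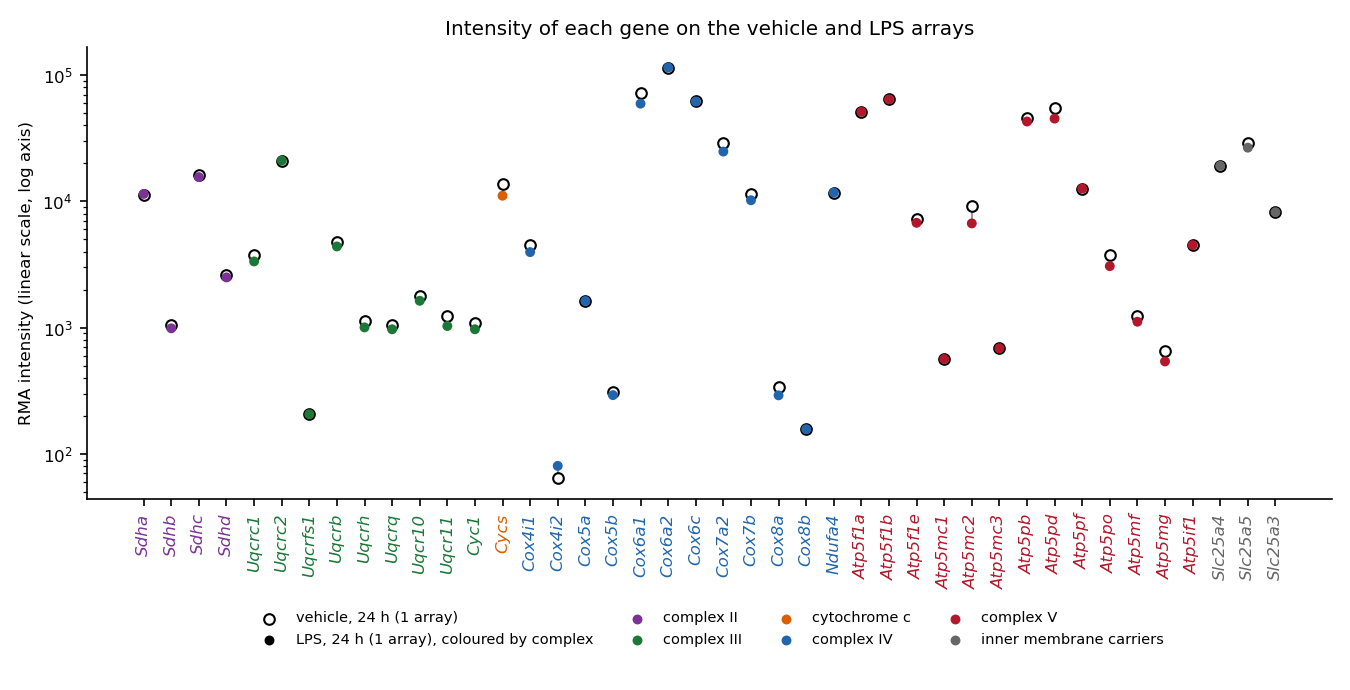
RMA intensity (log axis) of each of the 42 genes on the vehicle array (open circles) and the LPS array (filled circles, coloured by complex). The circles lie close together for all genes, and the filled one lies below the open one for 27 of them.

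Complex II, the dehydrogenase that belongs to both the citric acid cycle and the chain, differed little between the arrays. Its flavoprotein subunit gene Sdha was at 11252 with vehicle and 11468 with LPS, 1.02-fold higher. Sdhb, the iron-sulfur subunit, was at 1046 and 988, a log2 difference of -0.083. The membrane anchors Sdhc and Sdhd were at -0.043 and -0.054. The median of the 4 was -0.048, and none reached 1.2-fold.

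Complex III had no member that was higher. Of its 9 genes, 7 were lower and 2 identical, with a median of -0.13. Uqcr11, a small supernumerary subunit, went from 1245 with vehicle to 1030 on the LPS array, 1.21-fold lower, and was the member that passed 1.2-fold. Uqcrh, the hinge protein at the cytochrome c1 site, was at 1134 and 1004, and the core subunit gene Uqcrc1 at 3764 and 3347, each 1.12-fold to 1.13-fold lower. Cyc1, which encodes cytochrome c1, was at 1081 and 971, a log2 difference of -0.16.

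The small subunit genes Uqcr10, Uqcrq and Uqcrb lay between -0.13 and -0.12. In contrast, the second core subunit gene Uqcrc2 was identical at 21107, and the Rieske iron-sulfur protein gene Uqcrfs1 was identical at 206.3. The 2 identical members are subject to the limit on identical values given above.

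Cycs encodes cytochrome c, which carries electrons from complex III to complex IV, and was lower on both of its rows. The row with the higher level had no Entrez ID and had 13730 on the vehicle array and 11102 on the LPS array, 1.24-fold lower. The row with Entrez ID 25309 was at 4347 and 3161, 1.38-fold lower. Rodent genomes carry many processed copies of this gene, and the table does not tell which copy the row without an ID measures.

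Complex IV ranged from -0.29 to 0.33 log2, or to 0.021 without Cox4i2, whose values lay near the floor. Of 12 genes, 7 were lower, 3 identical and 2 higher, with a median of -0.041. Cox6a1, the widely expressed form of subunit 6A, had 72811 on the vehicle array and 59555 on the LPS array, 1.22-fold lower. Cox7b, a small structural subunit, was at 11517 and 10220, a log2 difference of -0.17. Cox5b, at 307 and 292, had a difference of -0.072, and Cox5a, at 1637 and 1626, one of -0.01. Cox6c, at 61955, and Ndufa4, first assigned to complex I and now counted with complex IV, at 11747, were identical on both arrays.

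For complex IV subunits that come in such pairs, the widely expressed forms were lower on the LPS array, and no analysed tissue-specific counterpart was lower. None of these counterparts was clearly higher either. Cox4i2 lay near the floor, Cox6a2 was 1.01-fold higher, and Cox8b had an identical value, with the limit given above. Cox4i1, the common form of subunit 4, had 4544 on the vehicle array and 3968 on the LPS array, 1.15-fold lower. Cox4i2, the form known from lung and from cells short of oxygen, was at 64.0 and 80.3, 1.25-fold higher. Both Cox4i2 values lay near the floor, and with values below 236, the 75th percentile of cluster means, raised to that level the difference was 0.

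For subunit 6A, Cox6a1 was lower as given above, while the heart and muscle form Cox6a2 was at 113498 and 115127, 1.01-fold higher. Subunit 8 had the same layout, with the widely expressed Cox8a at 336 and 291, 1.16-fold lower, and the heart and muscle form Cox8b identical at 156.8. Cox7a2, the widely expressed form of subunit 7A, was at 29305 and 24847, 1.18-fold lower. Its heart and muscle form Cox7a1 is not analysed here.

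The ADP/ATP carriers, which exchange the product of ATP synthase for its substrate, were laid out in the same way. Slc25a5, the form of many tissues, was at 29023 and 26682, a log2 difference of -0.12, and Slc25a4, the form of heart and muscle, was identical at 19172. Differences between the pair members, tissue-specific minus widely expressed, were 0.52 for subunit 4, 0.31 for 6A, 0.21 for 8 and 0.12 for the carrier. After removal of a loess trend of the difference on level they were 0.58, 0.32, 0.20 and 0.12. With low values raised to 236, the difference for subunit 4 was 0.20. Those of the other 3 pairs could not change, because their values lay above 236 or, for Cox8b, were below it and identical. For subunit 8 and the carrier, the tissue-specific value was an identical one. With 1 array per group these differences have no error. The phosphate carrier gene Slc25a3 was identical at 8222.

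**Figure D2:**
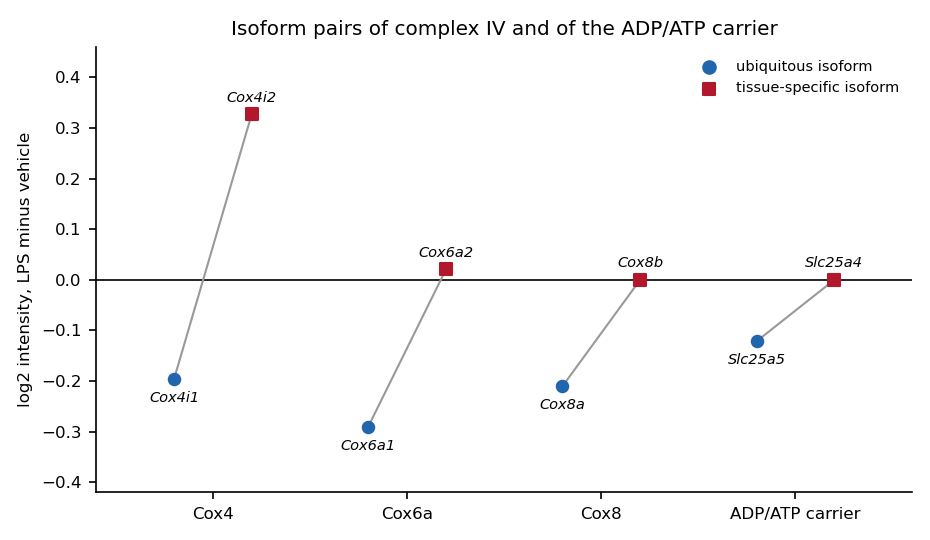
Log2 difference, LPS minus vehicle, of the widely expressed (circles) and tissue-specific (squares) member of each isoform pair, 1 array per group. The circles lie between -0.29 and -0.12 and the squares between 0 and 0.33, the highest square being Cox4i2 at a level near the floor.

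Complex V held the largest difference of the 42 genes. Atp5mc2, 1 of 3 genes for the same c subunit of the rotating ring, had 9276 on the vehicle array and 6699 on the LPS array, 1.38-fold lower. The other 2 ring genes, Atp5mc1 at 564.2 and Atp5mc3 at 686.3, were identical on both arrays. These 3 genes encode the same mature protein behind different import sequences.

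In the peripheral stalk, which holds the catalytic head still, Atp5po was at 3781 and 3073, 1.23-fold lower, and Atp5pd at 55010 and 45355, 1.21-fold lower. Atp5pb, a further stalk gene, was at 45912 and 43003, a log2 difference of -0.094, and its second row was at -0.036. Atp5pf was identical at 12659. The membrane subunit genes Atp5mg, at 649 and 540, and Atp5mf, at 1232 and 1114, had differences of -0.27 and -0.14.

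In the catalytic head, 3 of 5 genes were analysed. Atp5f1a and Atp5f1b, which encode the alpha and beta subunits where ATP is formed, had log2 differences of 0.011 and -0.0058, from 50969 to 51368 and from 64610 to 64353. Atp5f1e, the epsilon subunit gene, was at 7264 and 6770, a difference of -0.10, and -0.094 on its second row. Atp5if1, the inhibitor that stops the enzyme from running backwards, was identical at 4508. Over the 13 genes of complex V, 8 were lower, 4 identical and 1 higher, with a median of -0.094. Of the 13, 4 (30.8%) were lower by at least 1.2-fold, beside 12.9% of all genes above the floor. Among the 1442 genes with the highest level this share was 20.5%. The difference between these shares was not tested.

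**Figure D3:**
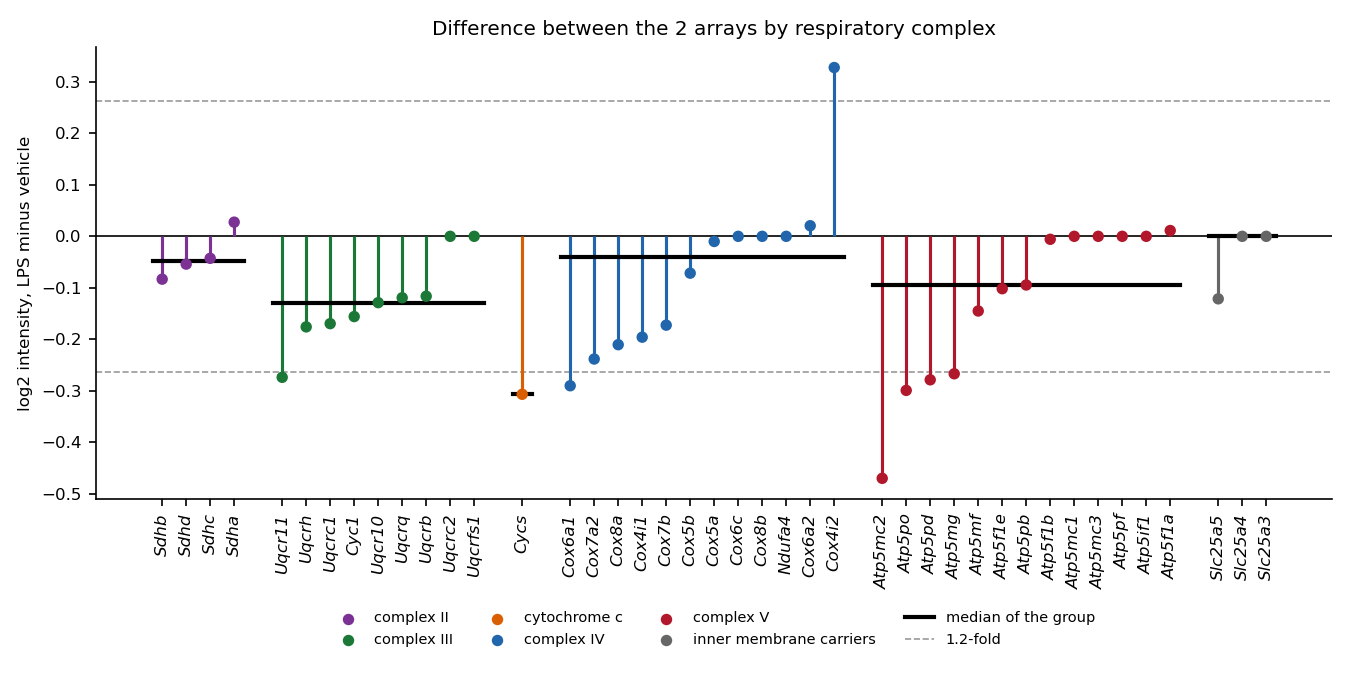
Log2 difference between the LPS and the vehicle array for each gene, grouped by complex, with the median of each group (black line) and the 1.2-fold size (dashed). Atp5mc2 is lowest at -0.47, 7 genes lie below the lower dashed line, and Cox4i2 at 0.33 is the single gene above the upper one.

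None of the 3 analysed subunits that mitochondria encode themselves had a lower value. COX1, which holds the oxygen-binding centre of complex IV, was at 526444 with vehicle and 547546 with LPS, 1.04-fold higher. These were the highest values of any row on each array, and how linear the signal is at that level is not known. COX2, which holds the entry site for electrons from cytochrome c, was at 304337 and 329521, 1.08-fold higher, and COX3 was identical at 344439. The remaining 3 of the 6 listed mitochondrial genes are not analysed here. Loss or gain of mitochondrial DNA was not measured, and in bulk RNA fewer cells of a type and less RNA per cell cannot be told apart.

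Assembly factors, which insert cofactors and join subunits, had a median of 0. Of 35 above the floor, 16 were lower (45.7%), 15 identical and 4 higher, beside 31.7% lower among all genes. Of the 35, 2 (5.71%) were lower by at least 1.2-fold, below the 12.9% of all genes. Cox17, the copper carrier for complex IV, was at 17054 and 12233, 1.39-fold lower. Bcs1l, which inserts the Rieske protein into complex III, was at 286 and 206, also 1.39-fold lower, and 1.21-fold after values below 236 had been raised. Tmem70, an assembly factor of ATP synthase, was at 2418 and 2126, a difference of -0.19. Cox15, of haem A synthesis, was at 5310 and 6176, 1.16-fold higher.

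Higd1a, a hypoxia-induced protein that binds complex IV, was at 274 and 377, 1.37-fold higher. Ndufa4l2, a hypoxia-induced relative of Ndufa4, was at 173 and 392, 2.27-fold higher, and 1.66-fold after such raising. Lonp1, the matrix protease that degrades Cox4i1 protein in hypoxia in human cells, was identical at 2816. Transcripts of the hypoxia-inducible factor subunits Hif1a and Epas1 were 1.77-fold and 16.6-fold higher. Among further subunits, Atp5mk of ATP synthase was at 53150 and 43921, 1.21-fold lower, while Cox7a2l and Dmac2l were identical.

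Complex I, the entry point for electrons from NADH, also had more lower than higher genes, with 25 of 35 genes lower, 9 identical and 1 higher and a median of -0.056. The lowest of them, Ndufb6 and Ndufb10, had log2 differences of -0.51 and -0.43, and 4 genes (11.4%) were lower by at least 1.2-fold, near the 12.9% of all genes. The share lower by any amount was 71.4%, beside 31.7%. Sarcomere genes, which mark the contractile apparatus of heart muscle cells, had a larger median difference of -0.42. Of 22, 16 were lower and 14 (63.6%) lower by at least 1.2-fold. Myl4 was 2.85-fold and Tcap 2.19-fold lower. No test of the difference between these lists was possible with 1 array per group.

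**Figure D4:**
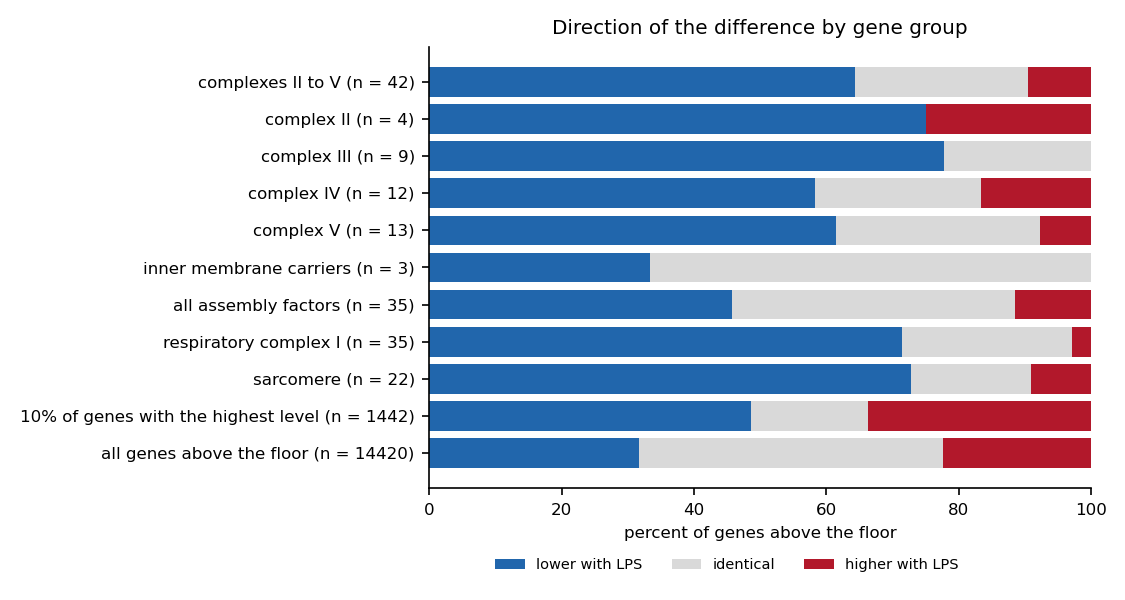
Percent of the genes of each group that were lower, exactly identical or higher on the LPS array, for genes above the floor of 49.3. The share of lower genes was 64.3% for complexes II to V, 71.4% for complex I, 72.7% for the sarcomere, 48.6% for the 10% of genes with the highest level and 31.7% for all genes.

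Cell type markers moved between the arrays beside these results, and several sums leaned on single genes. All 10 cardiomyocyte markers were above the floor on both arrays, and 5 were lower, 2 identical and 3 higher. By at least 1.2-fold, 4 (40.0%) were lower and 0 higher. Among all genes above the floor, 31.7% were lower by any amount and 12.9% by at least 1.2-fold. The summed intensity of these markers was 1014287 with vehicle and 934336 with LPS, but 758028 and 762365 without Actc1, the cardiac actin, which was 1.49-fold lower. The sum without Actc1 still held Actn2, 1.42-fold lower, and Nppa, 1.13-fold higher, which moved it in opposite directions.

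Of the 10 fibroblast markers, all above the floor, 6 were lower and 4 higher, with a median of -0.41. Among all genes above the floor, 31.7% were lower and 22.4% higher. By at least 1.2-fold, 6 markers were lower and 3 higher, beside 12.9% and 10.5% of all genes. By at least 2-fold, 3 were lower (Thy1, Col3a1 and Tcf21) and 3 higher (Dcn, Pdgfra and Lum), beside 2.63% and 3.69%. These ranged from Thy1, 3.87-fold lower, to Dcn, 12.8-fold higher. The fibroblast markers summed to 684675 with vehicle and 764950 with LPS, but 670835 and 587515 without Dcn, a matrix proteoglycan. Of the 10 macrophage markers, also all above the floor, 6 were lower and 4 higher, with a median of -0.20. By at least 1.2-fold, 4 were lower and 4 higher, and by at least 2-fold 3 and 3, beside the same shares of all genes. Adgre1, which encodes a macrophage surface receptor, went from 64.4 near the floor to 8803, while Mrc1 was 3.49-fold lower. The macrophage markers summed to 28461 and 37545, but 28396 and 28742 without Adgre1. Cd68, at 17875 and 16313, was the largest value in the sums without Adgre1.

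Smooth muscle and pericyte markers were lower in 7 of 8 cases, all above the floor, and 1 was higher. All 7 (87.5%) were lower by at least 1.2-fold, beside 12.9% of all genes above the floor. By at least 2-fold, 3 were lower, beside 2.63% of all genes. The 8 markers summed to 416896 and 152162, or 105500 and 41324 without Acta2. The 7 endothelial markers with a row summed to 1411 and 2560. Without Kdr, a receptor for vascular endothelial growth factor, the sums were 696 and 585, with 4 of the remaining 6 identical and 2 lower. The 4 identical ones lay at or near the floor, from 49.3 for Vwf and Emcn to 82.8 for Pecam1. Cdh5, at 88.3 and 77.6, was also near it, so these values say little about endothelial cells. No marker was at 0 on either array. The part of these shifts in the differences of the respiratory genes was not tested.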

How the data were processed

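RNA of 2 samples, 1 per group, was hybridised to Affymetrix whole-transcript arrays after labelling with the GeneChip WT PLUS kit, per the labels' protocols. The authors deposited linear-scale intensities made with RMA in Affymetrix Expression Console 1.4.1, per the submitters' processing notes. Not given in the sources used here are the genome build, the scaling after RMA and how many arrays were processed together. Medians were 49.3 on both arrays, and 67.2% of 68842 transcript clusters had exactly identical values. The number of arrays limits the precision.

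Differences were computed from log2 intensities without a pseudocount or renormalization (Python 3.11.15, pandas 2.3.3). Gene names come from the platform table, where 23446 clusters had 1 symbol, 505 several and 44891 none. For 41 of the 42 analysed genes the Entrez ID gave the same symbol in RefSeq GRCr8, and the row of Cycs had no ID. COX1, COX2 and COX3 are the platform's spellings of the mitochondrial genes. No test was run. Differences were counted at 1.2-fold and 2-fold. Counting and trend removal were tested on simulated data. There the trend was added to all genes, so genes that stay identical under a trend, as in the real data, were not simulated. Alternatives were other floors, sizes, row rules, centring and a loess trend (span 0.3, statsmodels 0.14.6). Named genes were the isoform pairs, all members past 1.2-fold, the extremes of each complex and members with several rows. Up to 3 genes per pathway list and 2 per comparison list were also named, except that all 5 hypoxia-linked genes were. Other members were given by role. The members and lists were chosen with earlier results of these data known.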

Additional observations from a re-analysis of the deposited data

How the results depend on the processing

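No paired analysis was possible because each group has 1 array. Counts followed the size chosen, with 15 members lower at 1.1-fold and 0 at 1.5-fold, where 0 were higher. With the floor at the 75th percentile, or with low values raised, 0 members were higher by 1.2-fold, and raised values put Cox4i2 at 0. Without identical values the median was -0.17 for complex IV and -0.12 for the carriers. The Cycs row with an Entrez ID, chosen after the data were seen, put cytochrome c at -0.46. Against the 10% of genes with the highest level, the background of lower genes was 48.6%. Centring on these genes subtracted 0. Removal of the loess trend left 37 of 42 members lower (88.1%), beside 63.4% of all genes above the floor. Among the 10% of genes with the highest level the share was 66.8%. Values identical on both arrays then no longer stay at 0. Among the members all identical ones except Cox6c fell below 0, and the rise from 27 lower members consists of these alone. The other 160 recomputed values moved by less than 0.1 log2, or by less than 1.5 times for counts and shares. Many of these 160 could not move, so their number does not measure how stable the results are. Centring subtracted 0, and leaving out the floor removed no limit that a member had failed. A changed size alters no median, and the other Cycs row alters only values that include Cycs. Depth cannot be given for intensities, and with 1 array per group no difference has an error.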
